A study of Mus musculus with 12 samples.

Results

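The genes described here are 10 genes of the circadian clock, Npas2, Arntl, Clock, Per1, Per2, Cry1, Cry2, Nr1d1, Nr1d2 and Dbp, out of 48709 genes counted by RNA sequencing in mouse peritoneal macrophages, the phagocytes of the abdominal cavity. They were found by gene name, and all 10 were present and passed the filter on low counts. The group was assembled because Npas2 had more RNA in knockout than in wild-type cells at both times sampled, so the genotype values of Npas2 chose the group and are given as a description with no test. The stated reason for the choice names no genotype value of the other 9 genes, and these were tested. The 10 genes were, however, chosen with earlier results of these data known, so these tests are not independent of the choice.

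The 12 libraries formed 4 groups of 3. MKO 3 h and MKO 0 h came from mice in which Usp5, a deubiquitinase that takes apart free polyubiquitin chains, was knocked out in myeloid cells, and WT 3 h and WT 0 h came from wild-type mice. Cells of the 3 h groups had been exposed to lipopolysaccharide (LPS), an outer membrane component of Gram-negative bacteria that macrophages sense, for 3 h, and cells of the 0 h groups had not, although the treatment label names LPS for all 12 libraries. The labels give neither the Cre line, strain, sex and age of the mice nor the hour of day at which cells were taken, and leave unsaid whether replicates were separate animals. The p-values therefore measure the spread between these libraries only, and that spread may be technical.

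The circadian clock is a feedback loop of transcription that runs in nearly every cell. CLOCK, or its close relative NPAS2, pairs with BMAL1, the product of Arntl, and activates genes through E-boxes in their promoters. Among these genes are Per1, Per2, Cry1 and Cry2, whose proteins return to the nucleus and repress the pair, and Nr1d1 and Nr1d2, whose proteins REV-ERB alpha and beta repress Arntl. Dbp encodes an activator that binds D-boxes in output genes. In macrophages the clock is known to set a daily rhythm in the response to LPS.

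All 10 are annotated as protein-coding (GENCODE M21), and the mm10 coordinates are those of the deposited table. The activators are Npas2 on chr1:39193731-39363236 (plus strand), Clock on chr5:76209868-76304792 (minus strand) and Arntl on chr7:113207465-113314126 (plus strand). The repressors are Per1 on chr11:69095217-69109960 (plus strand), Per2 on chr1:91415982-91459324 (minus strand), Cry1 on chr10:85131702-85185054 (minus strand) and Cry2 on chr2:92403646-92434043 (minus strand). The nuclear receptors are Nr1d1 on chr11:98767932-98775333 (minus strand) and Nr1d2 on chr14:18204054-18239127 (minus strand), and the output activator is Dbp on chr7:45705088-45710203 (plus strand).

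The libraries held between 14762709 and 20778862 counts each, and 1 count was worth 0.0469 to 0.0647 CPM (counts scaled to library size after TMM normalisation). Usp5 was at 26.9 to 31.4 CPM in the 6 MKO libraries and at 100.5 to 121 CPM in the 6 WT libraries. Replicate 3 of MKO 0 h and replicate 3 of WT 0 h stood apart from the other libraries of their groups, with scores of 23.2 and -18.1 on the third principal component. Of 8 macrophage markers 7 were used, and they summed to 6490 to 6730 CPM in MKO 3 h, 9480 to 9780 in WT 3 h, 5840 to 6260 in MKO 0 h and 8110 to 8700 in WT 0 h. Lyz2 was the lowest of them, at 11.8 to 43.9 CPM. Of 5 markers of large peritoneal macrophages Icam2 alone passed the filter, and Gata6, Timd4, Vsig4 and Cxcl13 held 1, 4, 1 and 1 counts over all 12 libraries. Summed markers of other cells stayed at or below 184 CPM for neutrophils (5 genes), 13.8 for B cells (5 genes), 9.62 for eosinophils (3 genes), 6.67 for dendritic cells (4 genes), 4.89 for mesothelial cells and fibroblasts (5 genes), 4.12 for mast cells (5 genes, with Tpsb2, Cma1 and Mcpt4 at 0) and 1.94 for T and NK cells (6 genes). Some of these sums moved with the genotype. At 3 h T and NK cell markers summed to 0.755 to 1.30 CPM in MKO and 0.251 to 0.672 in WT, dendritic cell markers to 3.52 to 4.52 in MKO and 6.33 to 6.67 in WT, and mesothelial cell and fibroblast markers to 1.60 to 1.86 in MKO and 4.26 to 4.89 in WT. At 0 h T and NK cell markers summed to 0.758 to 1.94 CPM in MKO and 0.453 to 0.721 in WT, B cell markers to 10.9 to 13.8 in MKO and 8.65 to 10.2 in WT, eosinophil markers to 6.82 to 9.62 in MKO and 3.82 to 6.13 in WT, and mesothelial cell and fibroblast markers to 1.42 to 2.04 in MKO and 3.10 to 4.44 in WT. The macrophage sum was lower in MKO at both times, and the part of these differences in the results was not tested. In bulk RNA, fewer cells of a type and less RNA per cell cannot be told apart.

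The promoters of Per1, Cry2 and Nr1d1, which differed by genotype, are shown with those of Npas2 and Cry1. E-boxes are the sites through which the clock acts on Per1, Cry1, Cry2 and Nr1d1, and Npas2 is shown as the gene that chose the group. RefSeq windows (GRCm38.p6) from 250 bases before to 50 after the annotated start were at hand for 9 of the 10 genes, all but Per2, and were searched on both strands for the E-box CACGTG, the related E-prime box CACGTT, which reads as AACGTG from the other strand, the D-box TTATGTAA or TTACGTAA and the RORE core TAGGTCA, the element of REV-ERB and ROR proteins. The 250 bases before the start are printed 5′ to 3′ on the strand of the gene, with matches in capitals. They cover chr1:39194022-39194271 (plus strand) for Npas2, chr11:69098699-69098948 (plus strand) for Per1, chr2:92434070-92434319 (minus strand) for Cry2, chr11:98775378-98775627 (minus strand) for Nr1d1 and chr10:85185055-85185304 (minus strand) for Cry1.
Npas2: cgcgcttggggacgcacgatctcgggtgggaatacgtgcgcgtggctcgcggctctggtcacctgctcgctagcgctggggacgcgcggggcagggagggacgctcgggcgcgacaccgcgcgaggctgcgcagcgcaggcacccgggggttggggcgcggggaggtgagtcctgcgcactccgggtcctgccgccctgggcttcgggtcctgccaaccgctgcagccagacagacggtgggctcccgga
Per1: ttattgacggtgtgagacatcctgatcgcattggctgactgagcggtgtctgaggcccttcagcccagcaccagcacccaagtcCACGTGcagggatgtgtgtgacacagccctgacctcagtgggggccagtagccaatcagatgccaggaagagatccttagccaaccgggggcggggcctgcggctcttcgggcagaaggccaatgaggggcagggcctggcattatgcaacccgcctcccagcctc
Cry2: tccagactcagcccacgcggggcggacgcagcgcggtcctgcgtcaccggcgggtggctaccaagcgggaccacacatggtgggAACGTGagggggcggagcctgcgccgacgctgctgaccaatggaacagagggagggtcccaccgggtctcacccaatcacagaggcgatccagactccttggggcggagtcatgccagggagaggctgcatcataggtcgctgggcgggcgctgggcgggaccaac
Nr1d1: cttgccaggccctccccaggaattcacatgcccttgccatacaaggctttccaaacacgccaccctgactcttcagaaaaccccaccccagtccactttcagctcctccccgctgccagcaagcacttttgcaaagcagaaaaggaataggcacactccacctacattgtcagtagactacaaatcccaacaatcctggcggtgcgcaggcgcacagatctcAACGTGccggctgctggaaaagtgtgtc
Cry1: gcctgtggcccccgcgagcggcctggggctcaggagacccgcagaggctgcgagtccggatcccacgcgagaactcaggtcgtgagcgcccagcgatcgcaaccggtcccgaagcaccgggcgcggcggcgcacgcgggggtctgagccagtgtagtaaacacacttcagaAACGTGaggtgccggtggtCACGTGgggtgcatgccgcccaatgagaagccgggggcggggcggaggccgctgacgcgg
The E-box was found in the upstream of the Per1 windows, with its first base at position -166 from the start, and in Cry1 at -60, thus in 2 of 9 genes, and in 8.09% of 27025 genes with a window. The E-prime box was found in Cry1 at -79, in Cry2 at -166 and in Nr1d1 at -28, thus in 3 of 9, against 5.44% of all genes. The RORE core was found in Arntl alone, at 31 bases after the start of the downstream of its windows (2.97% of all genes), and the D-box in none of the 9 (1.23% of all genes). No match lay in the windows of Npas2, Clock, Nr1d2 or Dbp, which says only that these letters are not in these windows. A match is a description of the sequence and not evidence that a protein binds there.

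Levels of different genes are compared on the deposited TPM values, which are per length. Nr1d2 had the highest mean TPM of the 10 genes in WT 3 h (26.4 ± 0.631), MKO 0 h (30.0 ± 5.49) and WT 0 h (28.8 ± 0.888), while in MKO 3 h Per1 stood first at 35.6 ± 5.38 TPM (SD, n = 3 each) with no library as low as the highest for Nr1d2. Per1 followed Nr1d2 in MKO 0 h with overlapping libraries, where Cry1 was clearly lower, whereas in both WT groups Cry1 and Per1 shared the next places at 11.96 to 13.01 TPM on average and overlapped. Arntl and Clock came next in all 4 groups and overlapped each other in both MKO groups and in neither WT group. Dbp overlapped Clock at 0 h in both genotypes and lay below it at 3 h. Npas2 was last in both WT groups, and none of its WT libraries reached the lowest Per2 library of the same group. In both MKO groups Npas2 overlapped Per2, which has a similar level.

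Npas2, which encodes the partner that can take the place of CLOCK, had 3.29 to 4.31 CPM in MKO 0 h cells against 0.661 to 1.03 CPM in WT 0 h cells. The single libraries were at 3.79, 4.31 and 3.29 CPM in MKO 0 h (62, 91 and 66 counts) and at 1.03, 0.705 and 0.661 CPM in WT 0 h (16, 12 and 11 counts). After 3 h of LPS they were at 2.90, 3.84 and 3.24 CPM in MKO (50, 62 and 69 counts) and at 1.19, 1.09 and 1.51 CPM in WT (19, 17 and 27 counts). Every MKO library lay above every WT library, by a margin larger than the spread within any group. The log2 difference of MKO over WT was 2.25 (SE 0.24) at 0 h, a 4.74-fold difference, and 1.38 (SE 0.23) at 3 h, a 2.60-fold difference. Because Npas2 was chosen on these differences they carry no test here.

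The counts behind these values are small, and counting error alone gives 95% Poisson intervals of 2.85 to 3.83 CPM for the summed counts of MKO 3 h, 0.981 to 1.63 for WT 3 h, 3.32 to 4.34 for MKO 0 h and 0.564 to 1.08 for WT 0 h. These intervals cover counting error only. Leaving out the libraries of both genotypes that stood apart gave a log2 difference of 2.23 at 0 h and 1.38 at 3 h.

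**Figure D1:**
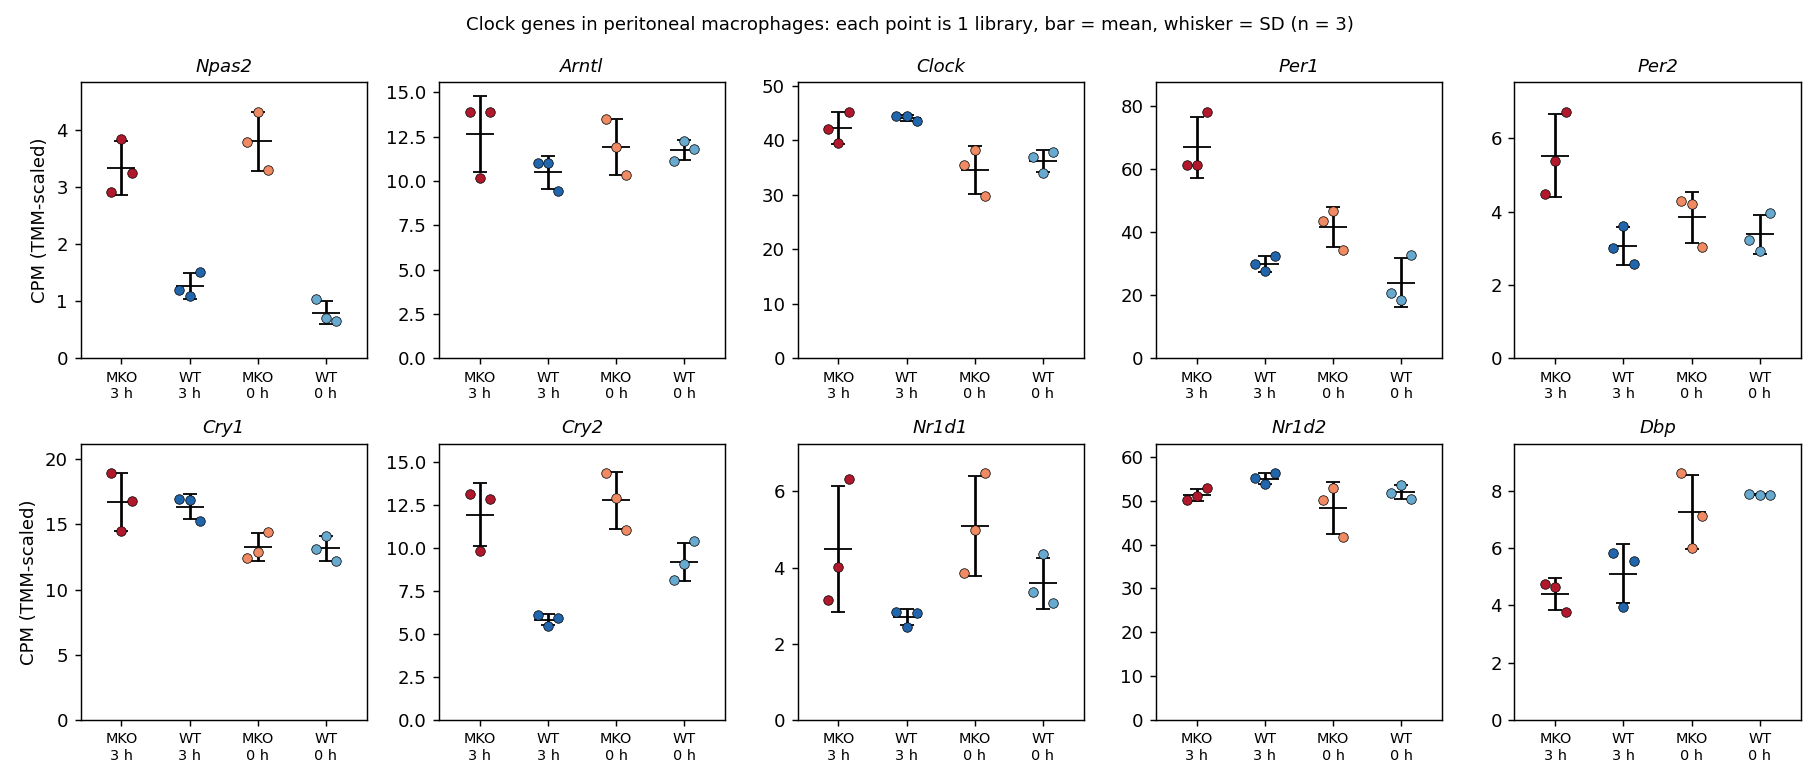
CPM of the 10 clock genes (vertical axes, linear from 0, TMM-scaled) in each library of MKO 3 h, WT 3 h, MKO 0 h and WT 0 h macrophages. Points are libraries, bars are means and whiskers SD (n = 3). Npas2 lies at 2.90 to 4.31 CPM in the MKO libraries and at 0.661 to 1.51 CPM in the WT libraries, and Per1 and Cry2 also lie higher in MKO at each time, whereas Clock and Cry1 overlap.

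Clock and Arntl, which encode the partners of this activator pair, were not called by genotype at either time. Clock was at 35.5, 38.3 and 29.8 CPM in MKO 0 h and at 36.9, 33.9 and 37.8 CPM in WT 0 h. After LPS it was at 42.1, 39.4 and 45.2 CPM in MKO 3 h and at 44.4, 44.5 and 43.5 CPM in WT 3 h. The genotypes overlapped at both times, and neither log2 difference was called. It was -0.07 with an interval of -0.24 to 0.11 at 0 h (1.96 SE on each side, adjusted p = 0.609) and -0.06 with an interval of -0.23 to 0.11 at 3 h (adjusted p = 0.604). All p-values here are from edgeR's quasi-likelihood test with Benjamini-Hochberg adjustment over the 12455 genes tested, and a gene is called at an adjusted p under 0.05.

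Arntl had 13.5, 11.9 and 10.4 CPM in MKO 0 h against 11.1, 12.3 and 11.8 CPM in WT 0 h, a log2 difference of 0.02 (SE 0.13, adjusted p = 0.943). At 3 h it had 13.9, 10.2 and 13.9 CPM in MKO against 11.0, 11.0 and 9.41 CPM in WT, with replicate 2 of MKO 3 h inside the WT range. The log2 difference at 3 h was 0.28 (SE 0.13, adjusted p = 0.109), and it passed the threshold without that replicate (0.43, adjusted p = 0.0154) and without the libraries that stood apart at 0 h (0.29, adjusted p = 0.0464).

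Set against Clock per length, Npas2 made up a larger part of the pair of related activators in MKO cells. Its TPM was 22.7 ± 4.49% of that of Clock in MKO 3 h, 8.24 ± 1.54% in WT 3 h, 31.5 ± 0.883% in MKO 0 h and 6.33 ± 1.55% in WT 0 h (SD, n = 3 each). All 6 MKO libraries were at 19.8% or more, and all 6 WT libraries were at 9.97% or less. This ratio rests on the chosen gene and is given with no test.

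**Figure D2:**
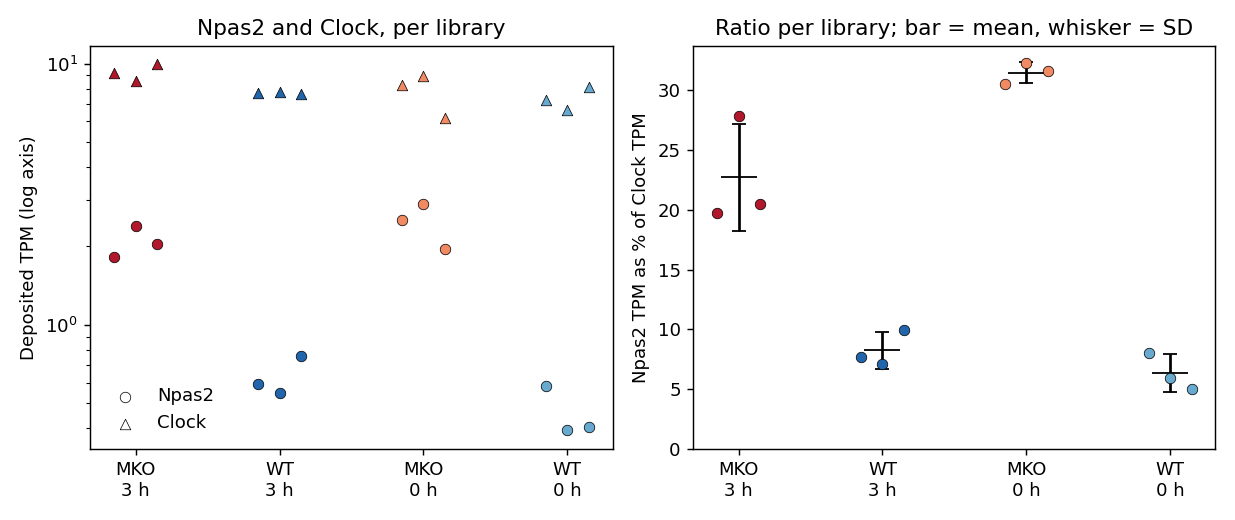
Deposited TPM of Npas2 (circles) and Clock (triangles) on a log axis in each library (left), and Npas2 TPM as a percentage of Clock TPM on a linear axis from 0 (right), with bars for means and whiskers for SD (n = 3). Clock lies between 6.18 and 9.94 TPM in all 12 libraries, and the ratio is 19.8% to 32.3% in MKO libraries and 5.01% to 9.97% in WT libraries.

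Of the 9 genes other than Npas2, 2 were called higher in MKO at 0 h (Per1 and Cry2) and 0 lower, where 16.5% of all genes tested were called higher and 16.4% lower. At 3 h, 4 were called higher (Per1, Per2, Cry2 and Nr1d1) and 0 lower, where 19.8% of all genes were called higher and 23.0% lower. DESeq2 called the same numbers in each direction, and the only genes with an unadjusted p under 0.05 were the 2 and the 4 named. The median log2 difference over the 9 was 0.02 at 0 h and 0.28 at 3 h, and over all genes tested it was -0.00 and -0.01. With library size in place of TMM scaling the median over all genes moved to 0.12 at 0 h and 0.24 at 3 h. At 3 h 6 of the 9 were then called higher, where 5424 of 12455 genes were called higher and 1199 lower.

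**Figure D3:**
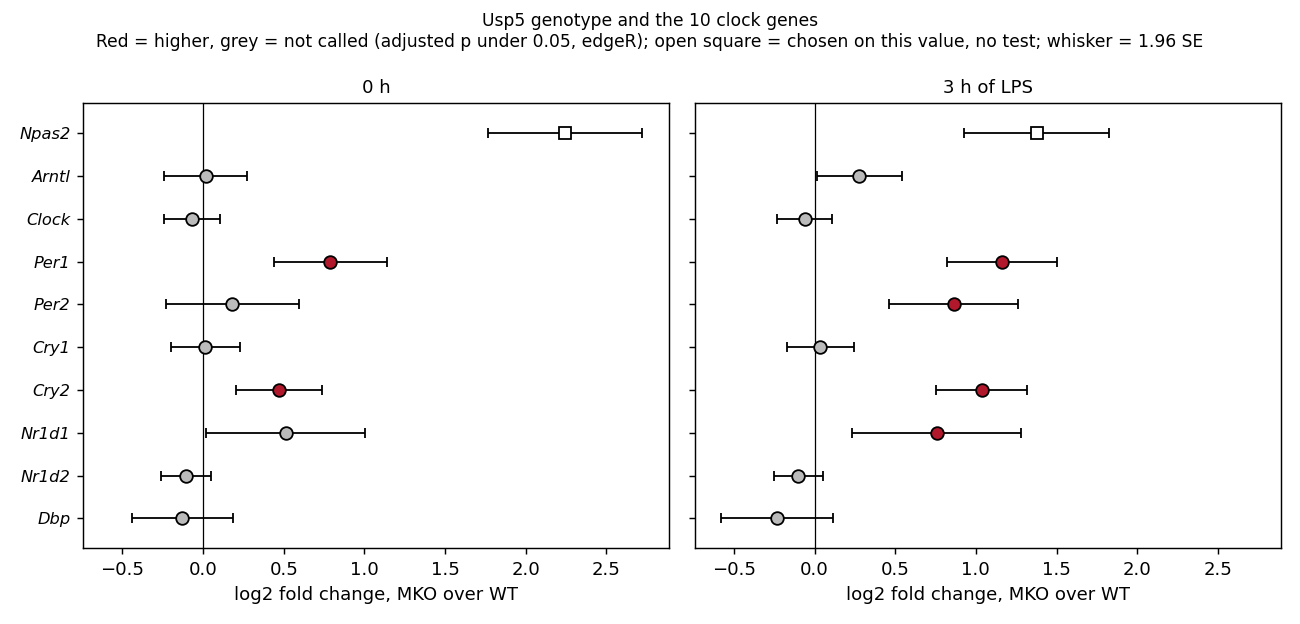
Log2 fold change of MKO over WT for each of the 10 genes at 0 h (left) and after 3 h of LPS (right), with whiskers of 1.96 SE from the edgeR fit of all 12 libraries. Red points were called higher and grey points were not called; open squares mark Npas2, which was chosen on these values. Per1 and Cry2 are red at both times (0.79 and 0.47 at 0 h, 1.16 and 1.04 at 3 h), and Per2 and Nr1d1 at 3 h only, a contrast between times that did not pass the test of the interaction.

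Per1, whose protein is a repressor of the loop and whose RNA is also induced early by many signals, was higher in MKO cells at both times. At 0 h it was at 43.6, 46.5 and 34.4 CPM in MKO and at 20.6, 18.5 and 32.9 CPM in WT. The groups did not overlap, but replicate 3, the library that stood apart, was the lowest in MKO and the highest in WT, which left a gap of less than 2 CPM between them. The log2 difference was 0.79 (SE 0.18, adjusted p = 0.00374), and without these libraries it was 1.21 (adjusted p = 2.47e-08). With replicates 1 and 2 of each group summed it was 0.63 and not called (adjusted p = 0.0926). The value of 1.21 comes from 0 h libraries in which the gene length slope, given below, also separates the genotypes. Genotype and slope cannot be told apart in it.

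At 3 h Per1 had 61.3, 61.3 and 78.0 CPM in MKO against 29.8, 27.6 and 32.4 CPM in WT. Each MKO library was well above each WT library, and the log2 difference was 1.16 (SE 0.18, adjusted p = 0.000112), a 2.24-fold difference. This call held in all 22 alternative settings.

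Per2, the other period gene of the repressor arm, was not called at 0 h, with 4.27, 4.22 and 3.04 CPM in MKO and 3.23, 2.94 and 3.96 CPM in WT (log2 difference 0.18, SE 0.21, adjusted p = 0.547, interval -0.23 to 0.59). At 3 h it had 4.47, 5.39 and 6.71 CPM in MKO against 3.01, 3.61 and 2.58 CPM in WT. The groups at 3 h did not overlap, and the log2 difference was 0.86 (SE 0.21, adjusted p = 0.00378).

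Cry2, which encodes a cryptochrome that represses the activator pair, was at 14.4, 12.9 and 11.1 CPM in MKO 0 h and at 8.15, 9.04 and 10.4 CPM in WT 0 h. The groups lay close without overlap, with a log2 difference of 0.47 (SE 0.14, adjusted p = 0.0158) that missed the threshold without replicate 1 of MKO 0 h (adjusted p = 0.0700), replicate 1 of WT 0 h (0.0740) or replicate 2 of WT 0 h (0.0504). At 3 h Cry2 had 13.1, 9.84 and 12.9 CPM in MKO against 6.08, 5.47 and 5.94 CPM in WT, a clear separation with a log2 difference of 1.04 (SE 0.14, adjusted p = 5.28e-05). An exon stretch of 295 bases is shared with D930015M05Rik on the opposite strand, which held 23 counts in all 12 libraries against 2130 for Cry2.

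Cry1, the other cryptochrome, was at 12.5, 12.9 and 14.5 CPM in MKO 0 h against 13.1, 14.2 and 12.2 CPM in WT 0 h, and at 18.9, 14.5 and 16.8 CPM in MKO 3 h against 16.9, 16.9 and 15.2 CPM in WT 3 h. The genotypes overlapped at both times. Its log2 difference was 0.01 (interval -0.20 to 0.23, adjusted p = 0.942) at 0 h and 0.04 (interval -0.17 to 0.24, adjusted p = 0.804) at 3 h.

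Nr1d1, which encodes REV-ERB alpha, had 3.85, 4.98 and 6.48 CPM in MKO 0 h against 3.36, 4.35 and 3.06 CPM in WT 0 h, an overlap with a log2 difference of 0.51 (SE 0.25, adjusted p = 0.139). At 3 h it had 3.14, 4.02 and 6.34 CPM in MKO against 2.82, 2.45 and 2.80 CPM in WT. The groups at 3 h did not overlap, but the gap to the highest WT library was smaller than the spread among the MKO libraries, and the log2 difference was 0.76 (SE 0.27, adjusted p = 0.0336). The call was lost without any of the WT 3 h replicates (adjusted p 0.0669 to 0.0995) without replicate 3 of MKO 3 h (log2 difference 0.41, adjusted p = 0.232) and with replicates 1 and 2 summed (0.84, adjusted p = 0.0669). Exons of Nr1d1 share 263 bases with Thra on the opposite strand, strand use in counting is not stated, and Thra had a log2 difference of 0.30 (adjusted p = 0.209) at 3 h.

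Nr1d2, which encodes REV-ERB beta and has many more reads, was at 41.7 to 53.0 CPM in MKO 0 h against 50.5 to 53.6 CPM in WT 0 h, and at 50.3 to 52.9 CPM in MKO 3 h against 53.8 to 56.3 CPM in WT 3 h. The 3 h groups did not overlap, yet the log2 difference was -0.10 (SE 0.08, adjusted p = 0.326), and at 0 h it was -0.11 (SE 0.08, adjusted p = 0.333). Dbp, the output activator, was at 6.02 to 8.61 CPM in MKO 0 h against 7.87 to 7.89 CPM in WT 0 h and at 3.76 to 4.76 CPM in MKO 3 h against 3.93 to 5.83 CPM in WT 3 h. It overlapped at both times, with a log2 difference of -0.13 (SE 0.16, adjusted p = 0.586) for the earlier time and -0.23 (SE 0.18, adjusted p = 0.315) for the later.

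A library property moved with the genotype at 3 h, and at 0 h in replicates 1 and 2 but not in replicate 3. The slope of log2 expression on log2 gene length was 0.0444 to 0.0782 in MKO 3 h and -0.0213 to -0.0054 in WT 3 h. At 0 h it ran from -0.112 to 0.0701 in MKO and from -0.0833 to 0.0255 in WT. The order was reversed in the replicate 3 libraries that stood apart, at -0.112 in MKO and 0.0255 in WT. Without them the slope was 0.0426 and 0.0701 in MKO and -0.0678 and -0.0833 in WT. Slope and genotype therefore cannot be told apart in the 0 h genotype values given without the libraries that stood apart. The log2 difference of Per1 at 0 h with the slope as a term of the fit was 0.64 (adjusted p = 7.08e-05). That of Cry2 at 0 h was 0.39 (0.0145), and Nr1d2 was called lower at 0 h (-0.16, adjusted p = 0.0402). With the same term the log2 differences at 3 h were 0.89 for Per1 (adjusted p = 1.96e-06), 0.63 for Per2 (0.0170), 0.90 for Cry2 (3.09e-05) and 0.93 for Nr1d1 (0.00976), and Npas2 was at 1.29. Clock (-0.18, adjusted p = 0.0273) and Nr1d2 (-0.19, adjusted p = 0.0264) were then called lower at 3 h. The slopes of the genotypes did not overlap at 3 h. The term therefore rests on slope differences within groups, which were widest at 0 h through replicate 3, and it cannot separate slope from genotype at 3 h by itself.

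After LPS, 4 of the 10 genes were called in each genotype. In MKO cells Per1, Clock and Cry1 rose and Dbp fell after 3 h, and in WT cells Clock and Cry1 rose and Cry2 and Dbp fell. In MKO, 3 of 10 were called higher and 1 lower, where 9.75% of all genes were called higher and 6.08% lower. In WT, 2 of 10 were called higher and 2 lower, where 17.8% of all genes were called higher and 14.6% lower. The median log2 change of the 10 was 0.09 in MKO and -0.03 in WT, and over all genes it was -0.01 and -0.00. With library size in place of TMM scaling the median over all genes became -0.10 in MKO and -0.23 in WT. The calls became 1 higher and 1 lower in MKO and 0 higher and 3 lower in WT. Of 12455 genes, 837 were then called higher and 1758 lower in MKO, and 1208 and 5209 in WT. The LPS response of each genotype is drawn from its own 0 h libraries, and 2 of these stood apart.

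Dbp fell in both genotypes. It was at 4.76, 4.64 and 3.76 CPM in MKO 3 h against 8.61, 6.02 and 7.13 CPM in MKO 0 h, and at 5.83, 3.93 and 5.55 CPM in WT 3 h against 7.89, 7.87 and 7.87 CPM in WT 0 h. All 3 h libraries lay below all 0 h libraries of their genotype. The log2 change was -0.72 (SE 0.17, adjusted p = 0.00839) in MKO and -0.62 (SE 0.17, adjusted p = 0.0102) in WT, and it missed the threshold without replicate 3 of MKO 3 h (adjusted p = 0.0551) and without replicate 2 of WT 3 h (0.0518). Dbp shares 539 exon bases with Sphk2 on the opposite strand, which has 19784 counts against 1288 for Dbp, and Sphk2 changed by -0.07 (adjusted p = 0.478) in MKO and fell by 0.35 (adjusted p = 0.000425) in WT.

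Clock and Cry1 rose by similar small amounts in each genotype. For Clock all 3 h libraries (39.4 to 45.2 CPM in MKO, 43.5 to 44.5 CPM in WT) lay above all 0 h libraries of the same genotype (29.8 to 38.3 CPM in MKO, 33.9 to 37.8 CPM in WT), with log2 changes of 0.29 (SE 0.09, adjusted p = 0.0366) in MKO and 0.29 (SE 0.09, adjusted p = 0.0225) in WT. For Cry1 the log2 changes were 0.33 (SE 0.11, adjusted p = 0.0464) in MKO and 0.31 (SE 0.11, adjusted p = 0.0406) in WT. The times of Cry1 did not overlap, but in MKO they all but met, with 14.485 CPM in the lowest 3 h library and 14.45 CPM in the highest 0 h library. With library size only the rises were 0.20 and 0.06 for Clock and 0.24 and 0.09 for Cry1 in MKO and WT, and none was called. The Cry1 calls held in 7 of 22 alternatives in MKO and 11 of 22 in WT, and the Clock calls in 11 and 17.

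Per1 had 61.3 to 78.0 CPM in MKO 3 h against 34.4 to 46.5 CPM in MKO 0 h, a rise of 0.69 on the log2 scale (SE 0.17, adjusted p = 0.0125) without overlap, which missed the threshold without replicate 3 of MKO 3 h (0.56, adjusted p = 0.0759). In WT it had 27.6 to 32.4 CPM at 3 h against 18.5 to 32.9 CPM at 0 h, and the overlap came from replicate 3 of WT 0 h. The log2 change in WT was 0.32 (SE 0.18, adjusted p = 0.213) with all libraries and 0.61 (adjusted p = 0.000132) without the libraries that stood apart. Without them Per1 rose by 0.57 (adjusted p = 5.84e-05) in MKO.

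Cry2 fell in WT, with 5.47 to 6.08 CPM at 3 h against 8.15 to 10.4 CPM at 0 h and no overlap (log2 change -0.66, SE 0.15, adjusted p = 0.00318), a call that held in all 22 alternatives. In MKO it had 9.84 to 13.1 CPM at 3 h against 11.1 to 14.4 CPM at 0 h, which overlapped, with a log2 change of -0.09 (SE 0.13, adjusted p = 0.684, interval -0.35 to 0.17). Per2 had 4.47 to 6.71 CPM in MKO 3 h against 3.04 to 4.27 CPM in MKO 0 h (log2 change 0.53, adjusted p = 0.0824) and changed by -0.15 in WT (adjusted p = 0.665).

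Npas2 did not pass the test in either LPS response. Its choice did not use these responses directly, but they are formed from the same 12 libraries, so these tests are not independent of it. Npas2 was at 2.90 to 3.84 CPM in MKO 3 h against 3.29 to 4.31 CPM in MKO 0 h, with a log2 change of -0.19 (SE 0.20, adjusted p = 0.550). In WT it was at 1.09 to 1.51 CPM at 3 h against 0.661 to 1.03 CPM at 0 h, so that its 3 h libraries were all above those at 0 h, with a log2 change of 0.67 (SE 0.28, adjusted p = 0.0842). The remaining genes were not called either: Arntl changed by 0.09 in MKO and -0.17 in WT, Nr1d1 by -0.17 and -0.42, and Nr1d2 by 0.09 and 0.08.

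**Figure D4:**
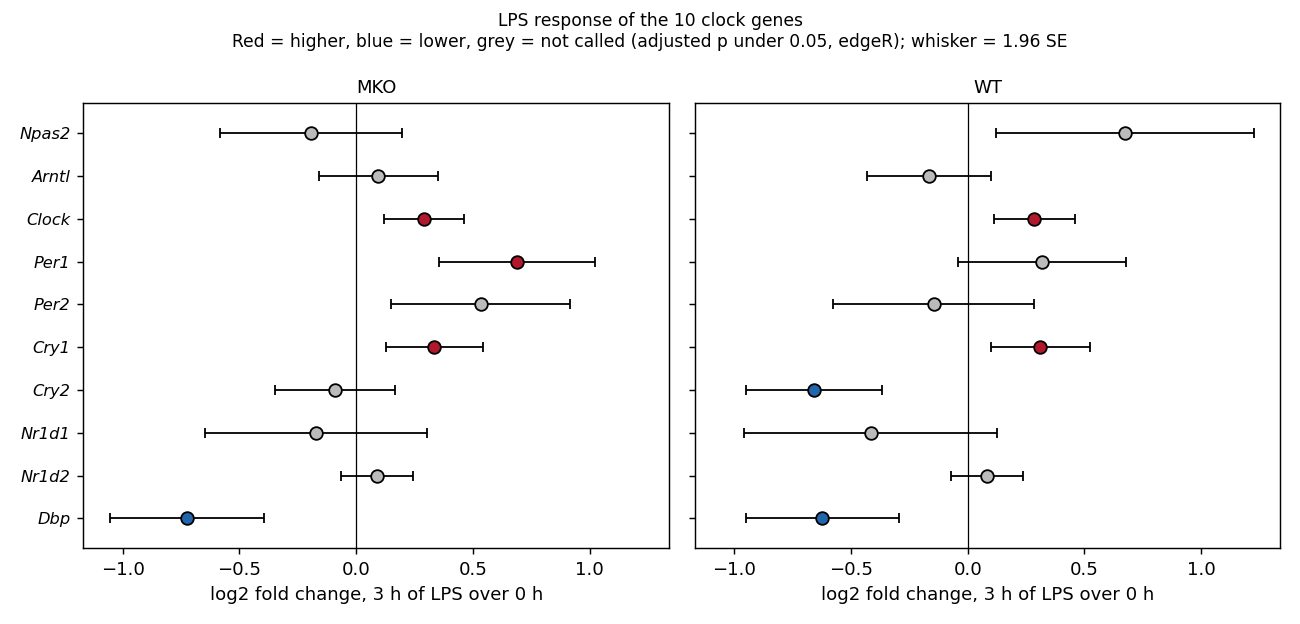
Log2 fold change of 3 h of LPS over 0 h for the 10 genes in MKO (left) and WT (right), with whiskers of 1.96 SE from the edgeR fit. Red points were called higher, blue points lower and grey points were not called. Dbp is blue in both panels (-0.72 and -0.62), Cry2 is blue in WT (-0.66), and Per1 is red in MKO (0.69).

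Whether LPS acted differently in the genotypes was tested as an interaction, the log2 change in MKO minus that in WT. Of the 9 genes other than Npas2, 0 were called in either direction by edgeR and 0 by DESeq2, where 6.80% of all genes tested were called, and 2 had an unadjusted p under 0.05. These were Cry2 (0.57, SE 0.20, adjusted p = 0.119) and Per2 (0.68, SE 0.29, adjusted p = 0.230). The median over the 9 was 0.24, and over all genes -0.02. With library size only Cry2 was called (0.70, adjusted p = 0.0476), and without the libraries that stood apart it was at 0.38 (adjusted p = 0.176). For Npas2 the value was -0.87 (SE 0.34), since its genotype difference was smaller at 3 h than at 0 h, and it carries no test because the same genotype differences chose it. The genotype comparisons at 0 h and 3 h share no libraries, whereas each LPS response shares its libraries with both of them.

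A wider list of 24 genes tied to the clock was read alongside, of which 22 were tested. Rorb had 0 counts in all 12 libraries, which allows up to 0.0142 CPM over the series (3 counts), and Hlf fell below the filter. In the genotype comparison 7 of the 22 were called higher and 2 lower at 0 h, where 16.5% and 16.4% of all genes were, and 11 higher and 7 lower at 3 h, where 19.8% and 23.0% of all genes were. The medians of the list were 0.12 and 0.15. Without the libraries that stood apart the split was 12 higher and 2 lower at 0 h and 11 and 8 at 3 h. Of 12566 genes tested in that setting, 3080 were called higher and 2954 lower at 0 h, and 3352 and 3679 at 3 h. With library size only the split was 13 higher and 5 lower at 3 h, where 5424 of 12455 genes were called higher and 1199 lower. At both times 6 were higher and 2 lower, and Noct was called higher at 0 h and lower at 3 h. The share of all genes called the same way at both times was not worked out, so the 6 and 2 have no background beside them. The 0 h call of Noct was lost in 5 alternative settings (adjusted p 0.109 to 0.191), among them those without replicate 1 or 2 of WT 0 h or replicate 2 of MKO 0 h.

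Rora, which encodes an activator acting on the same elements as REV-ERB, was at 11.8 to 20.4 CPM in MKO 0 h against 6.11 to 9.13 CPM in WT 0 h. This gave a log2 difference of 1.10 (SE 0.19, adjusted p = 0.000522). At 3 h it had 17.0 to 22.3 CPM in MKO against 8.46 to 9.58 CPM in WT, a log2 difference of 1.14 (SE 0.19, adjusted p = 0.000222). No library of a genotype overlapped the other at either time.

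Usp2, a deubiquitinase known to act on clock proteins, had 4.43 to 4.82 CPM in MKO 0 h against 1.76 to 2.70 CPM in WT 0 h (log2 difference 1.01, adjusted p = 0.00297). At 3 h it had 3.47 to 5.07 CPM in MKO against 0.815 to 1.57 CPM in WT (1.73, adjusted p = 6.4e-05). Arntl2, the paralogue of Arntl, was higher at both times (1.92, SE 0.46, adjusted p = 0.00559, and 1.79, SE 0.53, adjusted p = 0.0145), but it rests on 45 against 10 counts at 0 h and 28 against 7 at 3 h (MKO against WT), and at 3 h the call was lost without replicate 2 (adjusted p = 0.0633) or 3 (0.0583) of WT 3 h.

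Bhlhe40 and Bhlhe41, whose proteins compete for E-boxes, were higher in MKO by log2 differences of 0.50 and 0.39 at 0 h (adjusted p = 0.00154 and 0.00318) and of 0.34 and 0.90 at 3 h (adjusted p = 0.00672 and 2.07e-06), and the 0 h call of Bhlhe41 was lost with replicates 1 and 2 summed (0.33, adjusted p = 0.0926). Csnk1e, a kinase that phosphorylates PER proteins, was higher by 0.26 (adjusted p = 0.0213) at 0 h and 0.36 (adjusted p = 0.00211) at 3 h. Its 0 h call was lost without replicate 2 of WT 0 h (adjusted p = 0.0936) or of MKO 0 h (0.103), with only the groups compared (0.0772) and with replicates summed (0.110). Timeless was at 12.4 to 15.5 CPM in MKO 0 h against 22.5 to 26.6 CPM in WT 0 h, lower by a log2 difference of -0.77 (adjusted p = 4.68e-05), and of -1.02 (adjusted p = 2.72e-06) at 3 h. In mammals Timeless is known chiefly for its part at replication forks. Nampt, the enzyme that limits NAD salvage, was lower with log2 differences of -0.41 (adjusted p = 1.32e-05) and -0.61 (adjusted p = 1.67e-07). Arntl2, Bhlhe40 and Bhlhe41 lie on chromosome 6, which also carries Usp5, while none of the 10 clock genes does.

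**Figure D5:**
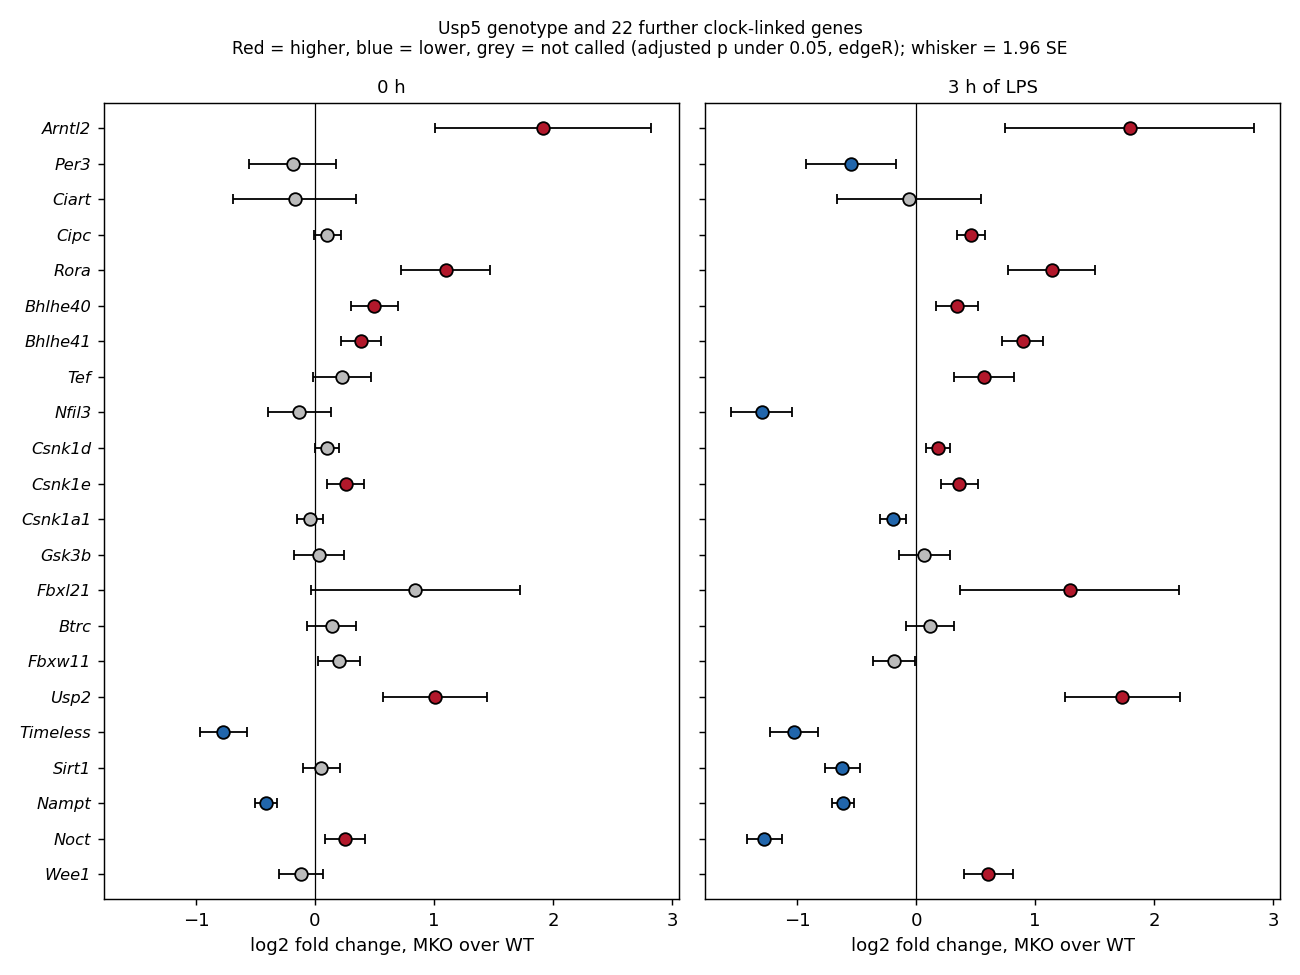
Log2 fold change of MKO over WT for the 22 tested genes of the wider clock list at 0 h (left) and 3 h of LPS (right), with whiskers of 1.96 SE. Red points were called higher, blue points lower and grey points were not called. Rora and Usp2 are red in both panels (1.10 and 1.01 at 0 h, 1.14 and 1.73 at 3 h), Timeless and Nampt are blue in both, and Noct is red at 0 h (0.26) and blue at 3 h (-1.27).

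In the LPS responses of the wider list 5 of 22 were called higher and 1 lower in MKO, where 9.75% and 6.08% of all genes were, and 7 higher and 6 lower in WT, where 17.8% and 14.6% of all genes were. The medians of the list were 0.09 in MKO and 0.00 in WT. With library size only the split was 5 and 4 in MKO and 7 and 9 in WT. Of 12455 genes, 837 were then called higher and 1758 lower in MKO, and 1208 and 5209 in WT. Without the libraries that stood apart the split was 8 and 3 in MKO and 8 and 5 in WT. Of 12566 genes, 1614 were then called higher and 995 lower in MKO, and 3115 and 2726 in WT. Noct, which encodes the phosphatase Nocturnin, had the smallest p in both genotypes, with 112 to 123 CPM in MKO 3 h against 19.7 to 22.7 CPM in MKO 0 h (log2 change 2.46, adjusted p = 9.53e-12) and 268 to 298 CPM in WT 3 h against 16.4 to 19.6 CPM in WT 0 h (3.99, adjusted p = 3.06e-14). Bhlhe40 came next in both, at 1.66 in MKO (adjusted p = 5.85e-09) and 1.81 in WT (adjusted p = 1.55e-09). The third was Sirt1, a deacetylase, at 0.55 in MKO (adjusted p = 0.000144) and 1.23 in WT (adjusted p = 1.09e-08).

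The genes whose pattern over the 12 libraries was most like that of Npas2 were found by the root mean square difference of log2 CPM, centred per gene, among 11406 genes that averaged 1 CPM or more. The nearest were Fah (0.20), an enzyme of tyrosine breakdown, Coq8a (0.20), a protein of coenzyme Q synthesis, Pomgnt2 (0.20), a glycosyltransferase, Tmem154 (0.20) and RP24-286J21.7 (0.21), against a median of 0.78 over all genes and 0.75 for a flat profile. Fah averaged 7.51 ± 0.451 CPM in MKO 3 h, 2.46 ± 0.348 in WT 3 h, 8.08 ± 0.815 in MKO 0 h and 2.09 ± 0.421 in WT 0 h (SD, n = 3 each). No ranked clock gene was among the nearest. Wider-list genes that averaged less than 1 CPM, Arntl2 among them, were not ranked. Per1 ranked at 418 (0.46), Cry2 at 959 (0.57), Nr1d1 at 1387 (0.61) and Per2 at 1470 (0.62), the other 5 between 3868 and 9214, and Rora of the wider list at 147 (0.35). The measure is a description over libraries that share 4 groups and says nothing of shared function or control.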

How the data were processed

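Total RNA of TRIzol-lysed peritoneal macrophages was sequenced with standard Illumina libraries, per the labels' protocols. The submitters' processing notes name fastp and mm10, while for the aligner, counter and strand setting the sources used here give nothing. The authors deposited 1 table with raw counts per gene and TPM values for the 12 libraries, per the file headers. Columns were assigned to samples through the sample titles.

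Counts were tested in edgeR 4.0.16 (R 4.3.3; quasi-likelihood, TMM, filterByExpr, 1 model with a mean per group), with 12455 of 19195 genes with any count tested. SE was taken as the log2 fold change over the square root of the F statistic. Deposited TPM served to compare levels between genes. CPM use TMM-scaled library sizes, and log2 values in the likeness ranking use a prior of 0.5 CPM. The fit was tested on simulated data. Alternatives were library size only or RLE in place of TMM, DESeq2 1.42.0, a filter at a mean of 5 CPM or none, a replicate block, only the groups compared, both 0 h libraries that stood apart left out, replicates 1 and 2 summed, the gene length slope as a term, and each library left out in turn.

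The 10 genes and all lists were chosen with earlier results of these data known. Some genes of the wider list are not reported here. Text names all 10 genes, wider-list genes called by genotype at both times in the same direction or among the 3 smallest p of an LPS response, and the 5 genes nearest to Npas2. Numbers of replicates do not pair samples: deviations from group means of same-numbered libraries correlated between -0.473 and 0.123. All pairs of replicates differed by more than counting error (chi-square over degrees of freedom 1.93 to 28.0). Replicates 1 and 2 were the closest pair in every group (1.93 to 2.68, against 3.04 to 28.0 for pairs with replicate 3), so they may not be independent of each other, and they were summed as an alternative. All 12 libraries were kept. No other per-sample columns were used.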

Additional observations from a re-analysis of the deposited data

Results flagged for a closer look

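None of the 9 clock genes other than Npas2 had an LPS response that differed between genotypes by the test of the interaction, but 6 of 22 tested genes of the wider list did, where 6.80% of all genes were called (edgeR, adjusted over all genes; MKO response minus WT response). The difference was -1.53 (adjusted p = 8.41e-07) for Noct, the phosphatase Nocturnin, which rose in both genotypes, by 2.46 in MKO and 3.99 in WT. It was -1.17 (adjusted p = 0.00107) for Nfil3, a repressor at D-boxes, with changes of 0.24 in MKO and 1.41 in WT. Sirt1 gave -0.67 (adjusted p = 0.00122), with 0.55 in MKO and 1.23 in WT. In the other direction, Wee1, a cell cycle kinase, gave 0.73 (adjusted p = 0.00507), with -0.25 in MKO and -0.97 in WT. Bhlhe41 gave 0.51 (adjusted p = 0.0223), with 0.08 in MKO and -0.43 in WT, and Cipc, a CLOCK-interacting repressor, gave 0.36 (adjusted p = 0.0166), with -0.16 in MKO and -0.52 in WT. Each of the 6 had a log2 change nearer to 0 in MKO than in WT. Libraries of the 0 h groups that stood apart enter these values, and without them 3 genes of the list were called positive and 6 negative. In that setting 837 of 12566 genes were called positive and 1698 negative. With replicates 1 and 2 of each group summed 0 of the list were called positive and 2 negative, where 57 of 12931 genes were called positive and 237 negative. The calls of Cipc (adjusted p = 0.191), Bhlhe41 (0.179), Sirt1 (0.0685) and Wee1 (0.0517) were then lost. Bhlhe41 also lost its call with the replicate block (0.0512) and without replicate 1 (0.0677) or 2 (0.0686) of WT 3 h or replicate 1 (0.0521) or 3 (0.0561) of MKO 3 h, and Cipc without replicate 3 of WT 3 h (0.0526).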

How the results depend on the processing

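Over 1075 recomputed values of the 10 genes, 1004 kept their side of the threshold or, for untested values of Npas2, moved by less than the replicate SD. Among these 1004, 49 values that were not called changed sign. A further 56 lost a call, 12 gained one, 3 (of Npas2) moved by more than the replicate SD and 0 calls reversed. The 2 calls by genotype at 0 h became 0 with replicates 1 and 2 summed (Per1 at an adjusted p of 0.0926) and ranged from 1 to 2 with single libraries left out, 1 without replicate 1 of either group or replicate 2 of WT 0 h. Over all genes, calls by genotype at 0 h numbered 4099 of 12455 before these changes and 2156 of 12931 with replicates summed. They numbered 3337 of 12632 without replicate 1 of MKO 0 h, 3119 of 12654 without replicate 1 of WT 0 h and 3153 of 12657 without its replicate 2. The 4 calls at 3 h became 2 at a mean of 5 CPM, where Per2 and Nr1d1 were not tested, 3 with replicates summed (Nr1d1 lost), and 3 to 5 with single libraries left out. Over all genes, calls at 3 h numbered 5326 of 12455 before, 4437 of 9482 at a mean of 5 CPM and 3434 of 12931 with replicates summed. With single libraries left out they numbered 4402 to 6070. The 4 LPS calls in MKO became 2 with library size only, 2 with the replicate block, 2 with only the groups compared and 1 with replicates summed, and ranged from 0 to 4 with single libraries left out, 0 without replicate 3 of MKO 3 h and 2 without replicate 1 of either MKO group or any WT 3 h replicate. Over all genes, LPS calls in MKO numbered 1971 of 12455 before, 2595 with library size only and 1616 with the replicate block. They numbered 1504 of 12188 with only the groups compared, 945 of 12931 with replicates summed and 1335 of 12605 without replicate 3 of MKO 3 h. Without replicate 1 they numbered 1623 of 12632 for MKO 0 h and 1424 of 12644 for MKO 3 h, and without a WT 3 h replicate 1743 to 1791. The 4 LPS calls in WT became 2 with replicates summed and ranged from 1 to 4 with single libraries left out, 1 without replicate 2 of WT 3 h and 2 without replicate 1 of WT 3 h. Over all genes, LPS calls in WT numbered 4042 of 12455 before and 2585 of 12931 with replicates summed. They numbered 3345 of 12602 without replicate 2 of WT 3 h and 3360 of 12605 without replicate 1. For the interaction, 0 became 1 with library size only, where all genes went from 847 to 1211 called of 12455. The replicate block ended the LPS calls of Cry1 in MKO (adjusted p = 0.0824) and WT (0.0656) and of Clock in MKO (0.0711). Except where named, the cause was not tested. At 39 to 219 counts per group Npas2 is limited by depth.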
